A study of Homo sapiens with 23 samples.

Results

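Propionylation of 2 histone sites, lysine 18 of histone H3 (H3K18pr) and lysine 12 of histone H4 (H4K12pr), was compared in cells given sodium propionate (NaPr). The libraries were those whose labels name either propionyl mark in NaPr-treated SW480 cells, 2 replicates of each site, and they made up 4 of the 23 samples of the series. SW480 is an established human cell line derived from a colorectal adenocarcinoma, and all 4 libraries came from SW480 cells given 10 mM NaPr for 12 to 16 h. The groups therefore differed in the antibody used for chromatin immunoprecipitation and sequencing (ChIP-seq), and not in the cells or the treatment. The remaining samples were acetyl and butyryl marks of the same sites in propionate, butyrate or untreated cells, and input chromatin. Propionyl marks of untreated cells were not analysed here, so no value below measures an effect of propionate. The labels do not say whether replicates came from separate cultures, so p-values measure the spread between these samples, which may be technical.

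Histone propionylation joins a short acyl group, 1 carbon longer than acetyl, to a lysine side chain, which removes its positive charge as acetylation does. Propionyl-CoA, made in part from the propionate that gut bacteria release from dietary fibre, is the donor, and acetyltransferases of the p300/CBP family can use it. Acetylated H3K18 is best known at promoters and enhancers, where p300 and CBP act. Acetylated H4K12 is known on newly made histones and across transcribed chromatin.

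The authors deposited a list of enriched regions (peaks) for each library. The lists held 94121 and 95924 regions for replicates 1 and 2 of H3K18pr, and 165556 and 122532 regions for those of H4K12pr, in all 478133. Both H4K12pr lists were longer than both H3K18pr lists. They covered 73.9 and 62.7 Mb of the genome in the H3K18pr libraries and 114 and 81.6 Mb in the H4K12pr libraries. The H4K12pr libraries were also deeper: the background that the lists themselves imply came to 4.93 and 3.38 fragments per kb for H3K18pr and 8.38 and 5.66 fragments per kb for H4K12pr. Depth thus moved with the histone site, and values at equal numbers of regions or at equal depth are given beside the main results. The equal-depth step rescaled the pileup at each summit, without redrawing fragments or calling regions again. It kept 152027 and 120784 of the H4K12pr regions, so the lists changed little and the step is a limited control for depth. Between 1.93 and 3.47% of the regions of each list overlapped a region of the list called on NaPr input chromatin.

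Regions found at one site alone looked different from one another at the level of their bases, and the windows below show the range. Each is the 200 bp around the summit of a region held by both replicates of one site and by neither of the other, taken by a fixed rule as among the strongest of its class. Coordinates are on hg38 and the letters are the plus strand of that genome. Capitals mark a match to a searched motif, and windows without capitals held none. The first 3 belong to H3K18pr alone. The window of CD46, a complement regulator, lies at its promoter at chr1:207752308-207752507, has a GC content of 68.5%, and holds a Krüppel-like factor (KLF) motif in capitals. The RORA window lies in an intron of this nuclear receptor gene at chr15:60674347-60674546 and has a GC content of 34.0%. The CLDN24 window is intergenic, 12314 bp from the start of this claudin gene, at chr4:183334640-183334839, with a GC content of 29.5%.
CD46 promoter: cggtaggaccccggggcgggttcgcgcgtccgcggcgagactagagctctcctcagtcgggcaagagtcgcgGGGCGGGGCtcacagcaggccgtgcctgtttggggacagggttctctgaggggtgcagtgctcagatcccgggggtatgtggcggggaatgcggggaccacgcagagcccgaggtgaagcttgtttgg
RORA intron: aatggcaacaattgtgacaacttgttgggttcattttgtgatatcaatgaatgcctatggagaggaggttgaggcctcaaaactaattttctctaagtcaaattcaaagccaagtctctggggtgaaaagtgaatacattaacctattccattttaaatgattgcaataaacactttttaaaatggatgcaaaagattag
CLDN24 intergenic: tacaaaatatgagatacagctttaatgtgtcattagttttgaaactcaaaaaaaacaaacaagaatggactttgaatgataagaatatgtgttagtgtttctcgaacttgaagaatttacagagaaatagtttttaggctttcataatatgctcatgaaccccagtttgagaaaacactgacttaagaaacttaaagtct

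The next 3 windows belong to H4K12pr alone. The EIF2D window lies at the promoter of this translation initiation factor at chr1:206612055-206612254 and has a GC content of 55.5%. The EIF3F window overlaps an exon of this subunit of initiation factor 3 at chr11:7987533-7987732, with a GC content of 66.0%. It counts as gene body because it lies 17382 bp from the nearest gene start, taken as the 5′ end of the whole gene record. Starts of single transcripts within a gene were not used, so the window may still lie near one. The SWINGN window is intergenic, 1792 bp from the start of this long non-coding RNA (lncRNA) gene, at chr13:113930683-113930882, with a GC content of 62.5% and a TCF/LEF motif in capitals.
EIF2D promoter: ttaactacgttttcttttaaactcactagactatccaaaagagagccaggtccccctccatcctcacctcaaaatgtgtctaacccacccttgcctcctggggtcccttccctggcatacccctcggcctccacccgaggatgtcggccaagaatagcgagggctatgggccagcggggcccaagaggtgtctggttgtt
EIF3F exon: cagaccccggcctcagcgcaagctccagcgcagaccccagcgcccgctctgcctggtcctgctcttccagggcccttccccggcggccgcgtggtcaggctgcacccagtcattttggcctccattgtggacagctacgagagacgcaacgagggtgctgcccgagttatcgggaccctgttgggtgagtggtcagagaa
SWINGN intergenic: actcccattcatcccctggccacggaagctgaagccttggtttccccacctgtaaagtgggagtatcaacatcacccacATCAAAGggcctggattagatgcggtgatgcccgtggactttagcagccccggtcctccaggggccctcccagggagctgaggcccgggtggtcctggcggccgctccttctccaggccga

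For comparison, the window of EPC1 and its antisense neighbour EPC1-AS2 stood among the strongest promoter regions held by all 4 libraries. EPC1 encodes a subunit of the NuA4 histone acetyltransferase complex, which acetylates H4. The window lies over an exon at chr10:32346734-32346933 with a GC content of 61.0%. Fold enrichment, the ratio of fragment pileup to local background at the summit as the authors' caller gave it, was 106 and 51.3 in the H3K18pr replicates and 55.1 and 38.3 in the H4K12pr replicates.
EPC1 promoter: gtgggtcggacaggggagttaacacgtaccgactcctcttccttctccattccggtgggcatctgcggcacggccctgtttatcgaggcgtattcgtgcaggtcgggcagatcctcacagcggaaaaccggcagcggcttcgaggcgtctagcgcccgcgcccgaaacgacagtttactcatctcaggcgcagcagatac

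The clearest difference between the sites was where regions lay relative to genes. H4K12pr regions lay inside genes more often, and H3K18pr regions lay between genes more often. A summit counted as promoter up to 1 kb on either side of where a protein-coding or lncRNA gene starts, as gene body elsewhere in such a gene, and as intergenic otherwise. The gene-body share was 57.6 and 58.5% in the H3K18pr replicates and 68.7 and 68.8% in the H4K12pr replicates. The replicates of a site lay within 1 percentage point of each other, and the sites did not overlap. The mean was 58.0% ± 0.639 (SD, n = 2) for H3K18pr and 68.7% ± 0.0740 (SD, n = 2) for H4K12pr, a difference of −10.7 points. The intergenic share was 27.5 and 28.8% against 20.9 and 19.3%, a difference of 8.04 points with higher values in both H3K18pr replicates. The promoter share was 14.9 and 12.8% in H3K18pr and 10.4 and 12.0% in H4K12pr, a difference of 2.65 points. These 3 differences each had a two-sided exact permutation p of 0.333, the smallest that 6 arrangements of 2 against 2 libraries can give, so none could pass 0.05. For scale, promoters took 2.26%, gene bodies 55.8% and intergenic sequence 42.0% of the genome.

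The promoter difference was not stable. With the same number of regions from each library it was −0.0935 points, and among the 20000 regions with the lowest p it was −2.02 points, with H4K12pr higher. The gene-body difference kept its sign in both, at −9.15 and −3.94 points, and was −10.6 points at equal depth. The intergenic difference was 9.25 and 5.96 points.

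**Figure D1:**
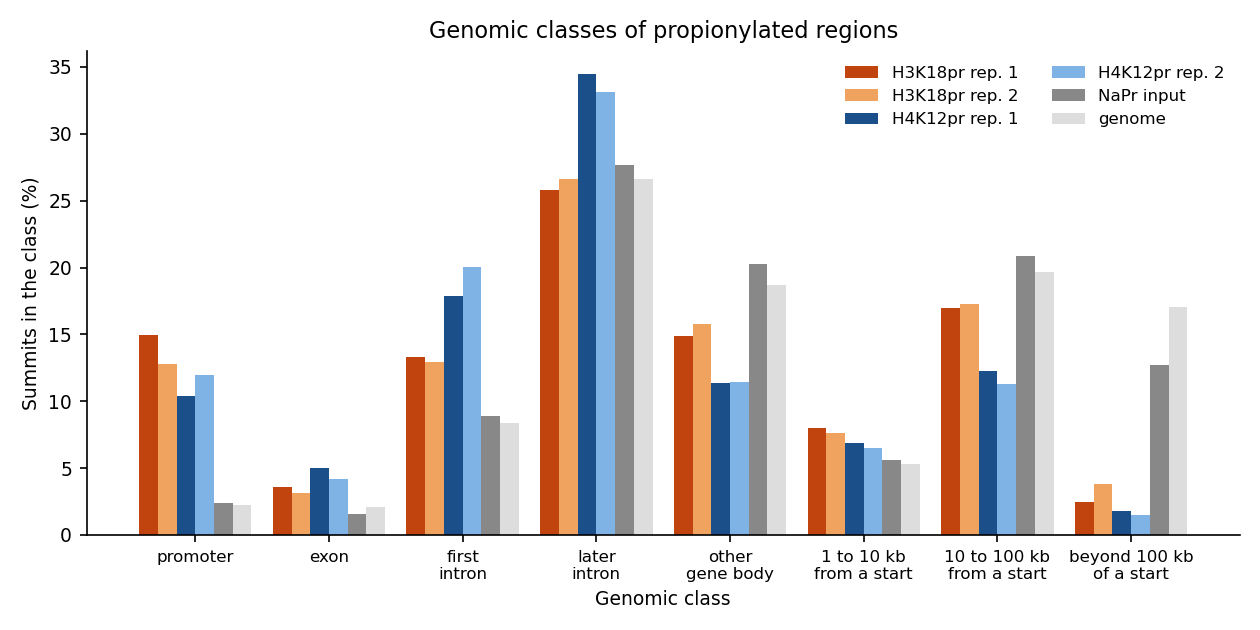
Percentage of region summits at promoters, in exons, in first and later introns, in other gene-body sequence and at distances from a start between genes. Bars show the 4 libraries, NaPr input and the genome. Later introns hold 25.8 and 26.6% of H3K18pr summits and 34.5 and 33.1% of H4K12pr summits.

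A finer division showed which parts of genes carried the difference. First introns held 13.3 and 13% of H3K18pr regions and 17.8 and 20.0% of H4K12pr regions. Later introns held 25.8 and 26.6% against 34.5 and 33.1%, and exons held 3.61 and 3.16% against 5.01 and 4.17%. H4K12pr was higher in all 3 classes in both replicates. Other gene-body sequence, outside those transcripts, went the other way, with 14.9 and 15.7% of H3K18pr regions and 11.3 and 11.5% of H4K12pr regions. The H4K12pr excess in gene bodies thus lay within the canonical transcripts of protein-coding genes. Between genes, H3K18pr had the larger share of its regions at every distance from a start. At 10 to 100 kb the share was 17.0 and 17.3% against 12.3 and 11.3%, and beyond 100 kb 2.44 and 3.84% against 1.77 and 1.51%. These shares did not overlap between the sites in any class (two-sided exact permutation p = 0.333 each, the smallest possible). Numbers of regions, from lists of unequal length, ran differently. At 1 to 10 kb they were 7562 and 7345 for H3K18pr and 11360 and 7935 for H4K12pr. At 10 to 100 kb they were 16004 and 16563 against 20309 and 13815.

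The difference between the sites grew from strong to weak regions. Among the 5000 regions with the lowest p of each library, the gene-body share was 48.2 and 49.6% for H3K18pr and 45.7 and 45.5% for H4K12pr, so that H4K12pr was lower. At 20000 regions the values were 47.6 and 49.8% against 52.4 and 52.9%. At 90000 regions they were 57.3 and 58.1% against 66.6 and 67.4%. Promoters took more of the 5000 strongest H4K12pr regions, 33.7 and 33.2%, than of the H3K18pr regions, 27.3 and 24.9%. The strongest H4K12pr regions were therefore no more intragenic than the strongest H3K18pr regions, and the gene-body excess came in with regions of lower rank.

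**Figure D2:**
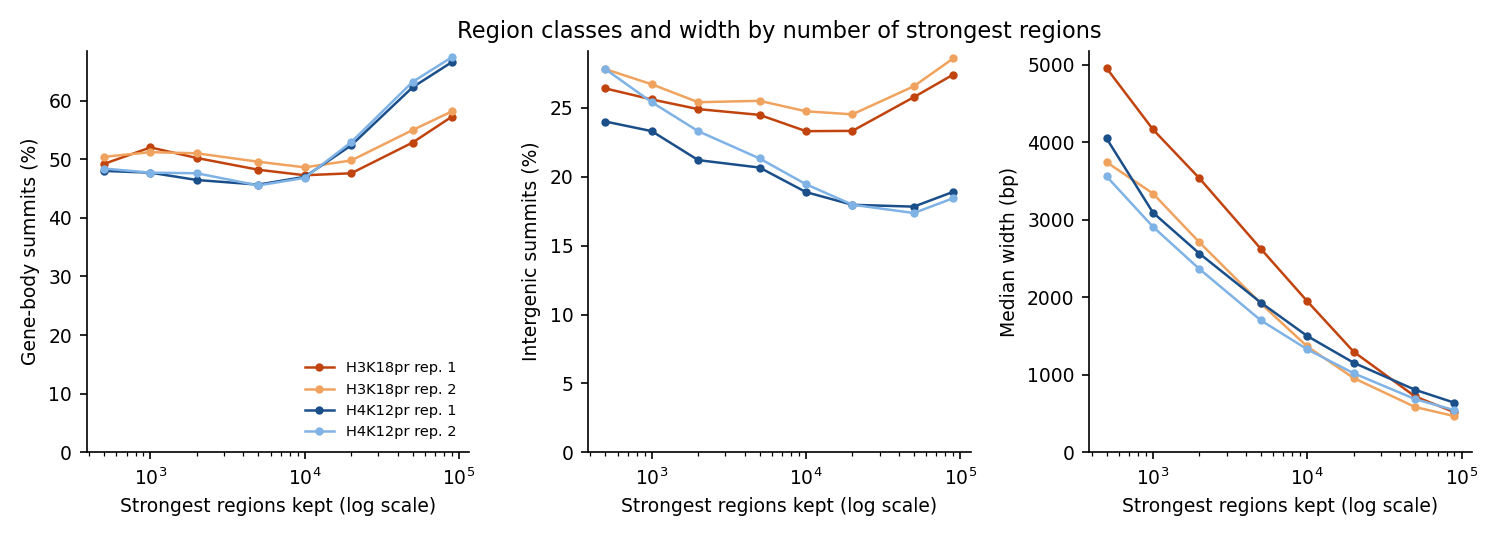
Gene-body and intergenic share of regions, and their median width, against the number of regions kept from each list in order of p. The gene-body lines of H3K18pr lie above those of H4K12pr at 5000 regions and below them from 20000 regions on.

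Around gene starts the marks reached similar heights but differed in shape. At 9883 starts with no other start within 5 kb, 30.6 and 23.3% of starts were covered at the highest point in H3K18pr and 31.8 and 26.0% in H4K12pr, between 350 and 450 bp downstream of the start. From 3 to 5 kb upstream the mean cover was 4.11 and 3.27% in H3K18pr and 6.36 and 4.30% in H4K12pr. From 3 to 5 kb downstream it was 4.69 and 3.72% in H3K18pr and 11.9 and 8.52% in H4K12pr. At 3 to 5 kb H3K18pr was thus nearly even on both sides of the start, while H4K12pr was higher on the gene side. Nearer the start both marks were higher downstream. Cover in the 1 kb downstream was 26.1 and 19.6% in H3K18pr, against 16.7 and 12.2% in the 1 kb upstream. For H4K12pr it was 27.8 and 22.3% against 20.8 and 17.5%. The ratio of downstream to upstream cover at 3 to 5 kb was 1.14 and 1.14 in the H3K18pr replicates and 1.87 and 1.98 in the H4K12pr replicates. Input chromatin gave 0.931. The means were 1.14 ± 0.00303 and 1.93 ± 0.0775 (SD, n = 2 each), a difference of −0.788 with an exact permutation p of 0.333, again the smallest possible.

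The sign of this difference held however regions were chosen. The sites differed by −0.889 with equal numbers of regions, by −0.913 among the 20000 strongest (1.12 and 1.11 against 2.14 and 1.92), by −0.795 at equal depth and by −0.779 without regions on input. The ratio was chosen as a measure after the profiles had been seen.

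**Figure D3:**
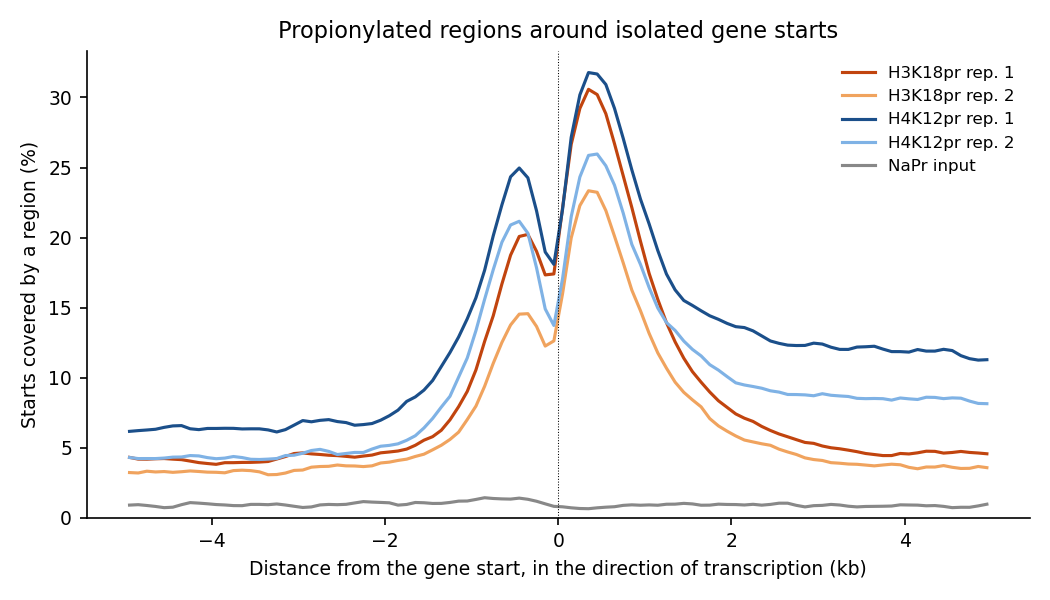
Percentage of 9883 isolated gene starts covered by a region, in 100 bp steps from 5 kb upstream to 5 kb downstream, for the 4 propionyl libraries and input. From 3 to 5 kb downstream the H4K12pr lines run at a mean of 11.9 and 8.52% and the H3K18pr lines at 4.69 and 3.72%.

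The same ratio was taken for the other marks of the same sites. In untreated cells acetylated H3K18 gave 1.22 and 1.25 and acetylated H4K12 gave 1.92 and 1.85, so that the sites did not overlap there either. In NaPr-treated cells acetylated H3K18 gave 1.94 and 1.16 and acetylated H4K12 gave 1.62 and 1.57. The H3K18 acetyl replicates lay far apart in this condition, and replicate 1 also had 71.7% of its regions in gene bodies against 54.1% in replicate 2. Butyrylated H3K18 in butyrate-treated cells gave 1.10 and 0.924 and butyrylated H4K12 gave 1.38 and 1.16. The site difference of the propionyl marks was not shown to differ from that of any other acyl group (exact permutation within acyl groups over 36 arrangements, p = 0.222 for acetyl in NaPr, 0.556 for acetyl in untreated cells and 0.333 for butyryl, all at least 0.5 after Benjamini-Hochberg adjustment over 3 comparisons). The lists of each acyl group carry their own run label, so acyl group and run cannot be told apart.

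**Figure D4:**
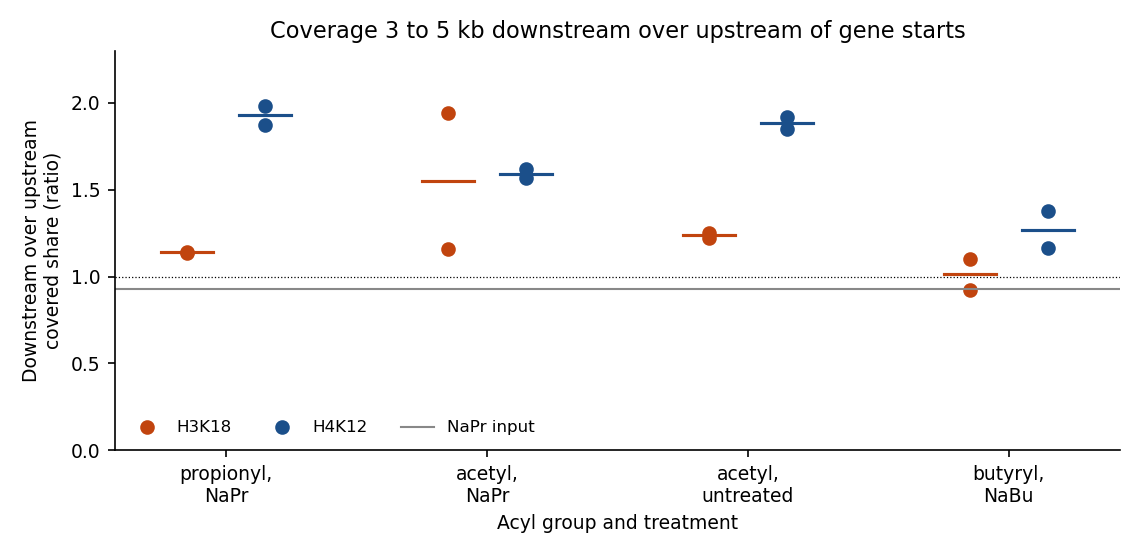
Ratio of downstream to upstream cover 3 to 5 kb from isolated gene starts, 1 point for each library, for the propionyl, acetyl and butyryl marks of both sites. Propionyl H4K12 sits at 1.87 and 1.98 and propionyl H3K18 at 1.14 in both replicates.

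Along whole genes H4K12pr cover was higher than H3K18pr cover inside the gene and also past its end. Over 17207 protein-coding genes of at least 5 kb, the 25% of the gene nearest its start, from 1 kb past the start on, was covered to 6.81 and 5.47% in H3K18pr and 13.9 and 10.3% in H4K12pr. The 25% nearest its end was covered to 4.07 and 3.25% and to 9.25 and 5.81%. H4K12pr was the higher in both, and all 4 libraries fell from the first of these parts to the last. From 9 to 10 kb past the end of the gene, cover was 5.91 and 4.51% in H3K18pr and 10.3 and 6.76% in H4K12pr. Windows past the end can lie inside neighbouring genes, which were not removed, so these values do not show higher cover between genes.

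Typical regions of the sites had similar widths. The median width was 508 and 460 bp in H3K18pr and 513 and 490 bp in H4K12pr, a difference of −17.5 bp with overlapping replicates (exact permutation p = 0.667). Its sign depended on the choice of regions. With equal numbers of regions it was −98.5 bp, with 508 and 462 bp against 630 and 537 bp, while among regions with q under 0.001 it was 49.5 bp. A larger share of H3K18pr bases lay in wide regions. Regions of at least 2 kb held 26.4 and 16.5% of all covered bases in H3K18pr and 13.9 and 13.3% in H4K12pr. Regions of at least 4 kb numbered 1202 and 551 in H3K18pr and 851 and 573 in H4K12pr, so that their number overlapped between the sites although the H4K12pr lists were longer. The widest single region, of 29948 bp, was in H4K12pr replicate 1. Among the 500 strongest regions the median width was 4957 and 3745 bp in H3K18pr and 4050.5 and 3561 bp in H4K12pr.

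Regions of the 4 libraries were then merged wherever they shared at least 1 bp, which gave 292036 union regions. By bases, replicates of the same site shared somewhat more than libraries of different sites. The Jaccard index (shared over combined bases) was 0.315 between the H3K18pr replicates and 0.262 between the H4K12pr replicates, and from 0.193 to 0.251 across sites. By regions the order did not hold throughout: 39.2% of the regions of H3K18pr replicate 1 overlapped H3K18pr replicate 2, against 48.2 and 39.5% that overlapped the longer H4K12pr lists. Most union regions came from 1 library, 131523 from a single H4K12pr library and 76560 from a single H3K18pr library.

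Both H3K18pr replicates and neither H4K12pr replicate held 5784 union regions, 1.98% of all. Both H4K12pr replicates and neither H3K18pr replicate held 21107, or 7.23%, and all 4 libraries held 21051. H3K18pr thus made up 21.5% of the one-sided regions (95% Wilson interval 21.0 to 22.0%, which covers counting error only). This balance followed the lengths and strength cutoffs of the lists. It was 41.7% with equal numbers of regions (7795 and 10902), 23.8% at equal depth (6053 and 19429), and 62.0% among the 20000 strongest of each library (2398 and 1470). Without H3K18pr replicate 1, where 1 library was enough for that site, the counts were 49260 and 28580, and without replicate 2 they were 41405 and 24306. Without H4K12pr replicate 1 they were 10603 and 74269, and without replicate 2 they were 8394 and 107104.

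The share differed by class of region. H3K18pr made up 16.0% of one-sided gene-body regions (15.5 to 16.5%, 3288 against 17260), 25.2% at promoters (23.4 to 27.2%, 508 against 1507) and 45.9% between genes (44.5 to 47.4%, 1988 against 2340). The intervals cover counting error over regions that share libraries and are no test of a difference between sites. One-sided regions were mostly distal to starts. Of the H4K12pr-alone regions, 81.8% lay in gene bodies, 11.1% between genes and 7.14% at promoters. Of the H3K18pr-alone regions, 56.8% lay in gene bodies, 34.4% between genes and 8.78% at promoters. Regions of all 4 libraries were at promoters in 31.8% of cases. The median distance to the nearest gene start was 19820 bp for H3K18pr alone, 11831 bp for H4K12pr alone and 6951 bp for all 4 libraries.

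One-sided regions were narrow beside shared ones. The median width was 724 bp for H3K18pr alone, 816 bp for H4K12pr alone and 1956 bp for regions of all 4 libraries. No H3K18pr-alone region and 36 H4K12pr-alone regions reached 4 kb, against 2713 shared ones. These widths depend on the merging, since a union region spans all the regions it joins. Shared ones join regions of all 4 libraries and one-sided ones of 2, and a wider region more easily meets every list. Single lists held 551 to 1202 regions of at least 4 kb. The order of widths is therefore no separate trait of one-sided regions. The widest H3K18pr-alone region spanned 3399 bp of SH3KBP1, an adaptor gene of receptor endocytosis, at chrX:19884028-19887426, with a fold of 5.61 and 4.51. A region of 3040 bp lay in FRAS1, an extracellular matrix gene, at chr4:78528680-78531719. The widest H4K12pr-alone region spanned 8737 bp of RNPS1, a splicing regulator, at chr16:2255846-2264582, with a fold of 8.32 and 5.81, and overlapped an input region. Others were 8425 bp of GTF2I, a transcription factor gene with near-identical copies nearby whose reads may be split, and 6930 bp of XPO1, the nuclear export receptor, which also overlapped an input region. Both lay inside the gene, at chr7:74671409-74679833 and chr2:61515583-61522512.

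The windows shown at the start spanned a wider range of base composition than the class means did. The mean GC content of summit windows was 48.0% ± 9.45 (SD over 5784 regions) for H3K18pr alone, 51.7% ± 7.80 (SD over 21107 regions) for H4K12pr alone and 55.7% for regions of all 4 libraries. Over whole lists it was 52.0 and 49.4% in H3K18pr and 52.8 and 50.6% in H4K12pr, with overlapping replicates. The RORA and CLDN24 windows lay more than 1 SD below the mean of their class, and the CD46 window more than 1 SD above it.

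Other marks overlapped the one-sided regions unequally. Of the H3K18pr-alone regions, 37.5 and 37.8% overlapped a region of the acetyl-H3K18 libraries of untreated cells, and 30.2 and 29.5% one of the acetyl-H4K12 libraries. Of the H4K12pr-alone regions, 17.0 and 21.4% overlapped acetyl-H3K18 and 49.6 and 46.1% overlapped acetyl-H4K12. Among the untreated libraries, each class overlapped more with the acetyl mark of its own histone site, although the acetyl-H4K12 lists were the longer (208823 and 191193 regions against 76888 and 155098). In NaPr-treated cells the acetyl-H3K18 replicates overlapped 52.3 and 10.8% of the H4K12pr-alone regions, and these 2 values are too far apart to place the class. The CLDN24 region, with a fold of 12.6 and 9.33, was held by 1 acetyl-H3K18 library of NaPr-treated cells and by none of the other acetyl and butyryl libraries compared here (acetyl in NaPr-treated and untreated cells, butyryl in butyrate). Butyrylated H3K18 overlapped 9.44 and 10.9% of the H3K18pr-alone regions and 1.30 and 1.14% of the H4K12pr-alone regions. Butyrylated H4K12 did not follow the order of the acetyl marks and overlapped 2.40 and 2.18% of the H3K18pr-alone regions and 0.829 and 0.635% of the H4K12pr-alone regions. The input list overlapped 2.42 and 4.60% of the 2 classes.

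Short sequence motifs were counted on both strands in the 200 bp around each summit and in windows 5 kb to either side, and the log2 ratio of the shares was taken as enrichment. The motifs were those of AP-1 (TGACTCA), SMAD (CTGTCTGG), KLF (GGGCGGGGC, GGGCGTGGC, GGGTGGGGC or GGGTGTGGC), ETS (CCGGAAGT), TCF/LEF (ATCAAAG), the E-box (CACGTG) and NRF1. The ETS motif was enriched by 0.64 ± 0.24 in H3K18pr and 0.27 ± 0.03 in H4K12pr (log2, SD, n = 2), and the KLF motif by 0.35 ± 0.08 and 0.19 ± 0.12. The E-box went the other way, at 0.24 ± 0.01 and 0.35 ± 0.00441. TCF/LEF motifs were below their flanks at both sites, by −0.36 and −0.52, and so was AP-1, by −0.08 and −0.20. NRF1 differed most, at 0.42 and −0.37, but stood in at most 0.0202% of the windows of any library. Replicates of the sites did not overlap for 6 of the 7 motifs, SMAD being the exception, and each of the 6 had an exact permutation p of 0.333, the smallest possible (adjusted p = 0.389 by Benjamini-Hochberg over 7 motifs). Several of these separations depended on the regions taken. KLF replicates overlapped at equal numbers, at equal depth and among the 20000 strongest, and AP-1 replicates with q under 0.001, among the 20000 strongest and in windows of 100 bp. The ETS difference of 0.37 fell to 0.07 among the 20000 strongest, with overlapping replicates, and ran from 0.20 to 0.54 when 1 library was left out.

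Motif shares were also taken at the promoter regions of each class, 508 for H3K18pr alone and 1507 for H4K12pr alone, and were not tested. At H3K18pr-alone promoter regions 4.13% of windows held the KLF motif, as in the CD46 window, against 0.591% of their flanks. At H4K12pr-alone promoter regions these shares were 2.52 and 1.49%. The TCF/LEF motif was found in 2.76% of H3K18pr-alone promoter windows and in 0.796% of H4K12pr-alone promoter windows, against 2.36 and 2.69% of their flanks. At promoter regions of all 4 libraries the KLF motif stood at 3.54% against 1.37% of flanks, so it was not particular to H3K18pr-alone promoters. The TCF/LEF motif stood there at 1.12% against 2.43%, and the ETS motif at 0.733% against 0.120%. A match says only that these letters are in the window.

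Promoters were next counted gene by gene. A promoter, reaching 1 kb to either side of the start of a protein-coding gene, was called held where any region overlapped it. H3K18pr held 10973 and 9613 of 19970 promoters and H4K12pr held 12270 and 10760, a difference of −1222 with overlapping replicates (exact permutation p = 0.667). It was −97.5 with equal numbers of regions and ran from −1977 to −467 when 1 library was left out. All 4 libraries held 7280 promoters and none held 5510. Where all 4 held the promoter, the median cover was 56.8 and 43.2% of the window in H3K18pr and 57.6 and 50.9% in H4K12pr. The median of the highest fold was 7.98 and 5.79 in H3K18pr and 5.69 in both H4K12pr replicates.

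Both H3K18pr replicates and neither H4K12pr replicate held 241 promoters, 1.21% of all, and both H4K12pr replicates and neither H3K18pr replicate held 774, or 3.88%. These sets changed with the strength of the regions. Equal numbers of regions gave 437 and 515 promoters, of which 238 and 513 were in the original sets. The 20000 strongest regions of each library gave 381 and 543, but these included only 8 of the 241 and 55 of the 774. At equal depth the counts were 258 and 749, with 241 and 744 of the original promoters. Most one-sided promoters thus carried a region outside the 20000 strongest in at least 1 replicate.

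The strongest H3K18pr-alone promoters belonged to genes of varied function. CD46, which protects cells from complement, had a region of fold 9.34 and 9.62 over 60.8 and 38.9% of its promoter. KDM3B, a demethylase of histone H3 lysine 9, had a fold of 9.61 and 6.20 over 34.1 and 28.0%. PLEKHS1, a pleckstrin-domain gene, had a fold of 6.22 and 9.62 over 52.2 and 27.2%, and PPP1R12B, a myosin phosphatase subunit, had 5.66 and 6.87 over 52.0 and 45.3%. SEZ6L2, GPR155 and the transporter gene SLC5A11 had lower folds of 5.95, 5.78 and 5.95 in their weaker replicate. RBBP6, a ubiquitin ligase gene, led by fold with 18.4 and 11.6, but only 9.60 and 3.80% of its window was covered, so its region reached in from outside.

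The strongest H4K12pr-alone promoters were drawn from the larger set of 774. EIF2D, the initiation factor shown above, had a fold of 12.2 and 16.8 over 31.1 and 41.5% of its window. GATB, of the mitochondrial glutamyl-tRNA amidotransferase, had 10.2 and 11 over 37.9 and 34.6%, and its region overlapped an input region. MRPL35, a mitochondrial ribosomal protein, had a fold of 7.46 and 7.25, and WDR36, a ribosome biogenesis factor, had 7.24 and 8.07. TPRKB, which takes part in tRNA modification, was the most fully covered, at 80.4 and 77.6% with a fold of 8.06 and 7.50. The kinase gene ULK3 had 9.10 and 9.23 over 30.9 and 42.2%. BICRAL, a BAF complex gene, led with 37.1 and 30.2, with 0.450 and 26.1% of the window covered. ACSL5, an acyl-CoA synthetase gene, had 10.7 and 10.6 over 1.40 and 1.05%, an edge overlap.

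Signalling genes appeared on both sides. From the gene lists of known pathways, the H3K18pr-alone promoters were those of TCF7L2, the partner of beta-catenin in Wnt transcription (20.9 and 17.5% covered), RNF43, which removes Wnt receptors (45.6 and 20.8%), CDK1, the mitotic kinase (43.0 and 17.5%), KLF5 (17.9 and 29.3%), KLF13 (20.5 and 21.8%), the adaptor GAB1 (26.4 and 17.5%), the activin receptor ACVR1 (12.3 and 13.9%), BATF2 (20.4 and 38.3%) and ARHGEF7 (24.9 and 27.9%). The H4K12pr-alone promoters included ZNRF3, a relative of RNF43 with the same role (25.9 and 21.2%), WNT11 (17.9 and 26.5%), KLF11 (42.7 and 51.1%), SMAD6, an inhibitor of BMP signalling (31.2 and 25.3%), the proteasome ATPase PSMC2 (30.7 and 33.4%), CDC25B (25.7 and 6.90%) and TIAM1 (21.8 and 31.0%). RNF43 and ZNRF3, which act alike on Wnt receptors, fell on opposite sides, but the pair was picked after the values were seen. Not every H4K12pr-alone list member is named here. Over all protein-coding genes, 1.21% of promoters were H3K18pr-alone and 3.88% H4K12pr-alone, and no list was tested against these shares. None of the named promoters passed the comparison of graded cover below.

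Graded cover of promoters was compared with limma on the arcsine square root of the covered fraction, with Benjamini-Hochberg adjustment over the 14460 promoters held by any library. None passed an adjusted p of 0.05 (0% called, smallest adjusted p = 0.376). At an unadjusted p under 0.05, 430 promoters were higher in H3K18pr (2.97%) and 1219 in H4K12pr (8.43%). The replicates of the sites did not overlap in 1827 promoters with H3K18pr higher (12.6%) and 3343 with H4K12pr higher (23.1%). With every region set to 400 bp around its summit, 1015 promoters passed, 242 higher in H3K18pr and 773 in H4K12pr. These calls were close in number to the one-sided promoters of that setting, 241 and 787. Cover by fixed-width regions takes few values, so replicates can match exactly and their spread be understated. The calls are therefore no evidence beyond the one-sided counts. Leaving out H4K12pr replicate 1 or 2 gave 1138 and 1900 calls, in fits where the remaining library was assumed to vary like the other group.

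Gene bodies showed the difference between the sites more widely. Cover was taken from 1 kb past the 5′ end to the 3′ end of protein-coding genes of at least 5 kb. In 7052 of 15625 gene bodies with any region, both H4K12pr replicates were above both H3K18pr replicates (45.1%), and the reverse held in 1263 (8.08%). The median cover was 2.13% in H3K18pr and 5.49% in H4K12pr, and the median difference was −2.24 points. In limma no gene passed an adjusted p of 0.05 by Benjamini-Hochberg (0% called, smallest adjusted p = 0.0699), and 3582 were higher in H4K12pr (22.9%) and 217 in H3K18pr (1.39%) at an unadjusted p under 0.05. With equal numbers of regions these counts were 2393 and 587. With regions of 400 bp, 435 gene bodies passed, 415 of them higher in H4K12pr. Without H4K12pr replicate 2, 1482 passed. When the 4 libraries were brought to the same distribution of cover by quantile normalization, none passed and the unadjusted counts became 1844 higher in H3K18pr and 1645 in H4K12pr. The call of a side for a gene therefore depended on whether the wider cover of H4K12pr over all genes was kept or scaled away.

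The 8 genes with the largest excess of H4K12pr ranged from nearly bare to nearly covered between the sites. They were chosen after their values were seen, since no gene passed the threshold, and none is a call. EIF6, a factor of the large ribosomal subunit, was covered to 2.95 and 1.28% by H3K18pr and to 79.6 and 86.7% by H4K12pr (limma, Benjamini-Hochberg adjusted p = 0.0699). SRRT, which binds the nuclear cap-binding complex, went from 2.01 and 3.83% to 74.2 and 89.3%. NOP56, a core protein of box C/D small nucleolar particles, had 19.1 and 7.29% against 76.5 and 95.3%. In each of these genes H4K12pr covered most of the gene while H3K18pr covered little of it. RPS19, of the small ribosomal subunit, had 3.04 and 0% against 72.2 and 74.4%. SNRPD2, of the spliceosome, had 5.38 and 0% against 83.6 and 62.2%. AURKB, the mitotic kinase, had no H3K18pr region in either replicate and 74.0 and 59.9% in H4K12pr. MCM7, of the replicative helicase, and RNPS1 completed the 8, and regions within overlapping or adjoining genes cannot be told apart here.

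Fewer genes leaned to H3K18pr, and the differences were smaller. BAMBI, a decoy receptor that dampens TGF-beta signalling, was covered to 33.0 and 44.5% by H3K18pr and 10.8 and 9.25% by H4K12pr (limma adjusted p = 0.0937). ZNF582, a zinc finger gene, had 42.7 and 38.7% against 16.4 and 9.11%, and ANKRD34A had 32.8 and 43.5% against 8.22 and 9.43%. TRNP1 had 68.3 and 66.6% against 43.0 and 42.8%, the closest replicates of the 8. In the other genes, FIGNL1, TCF15, RTP3 and MYL5, the H4K12pr cover remained high or the replicates were far apart. FIGNL1, an ATPase of DNA repair, had 68.4 and 80.6% against 67.4 and 25.7%.

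**Figure D5:**
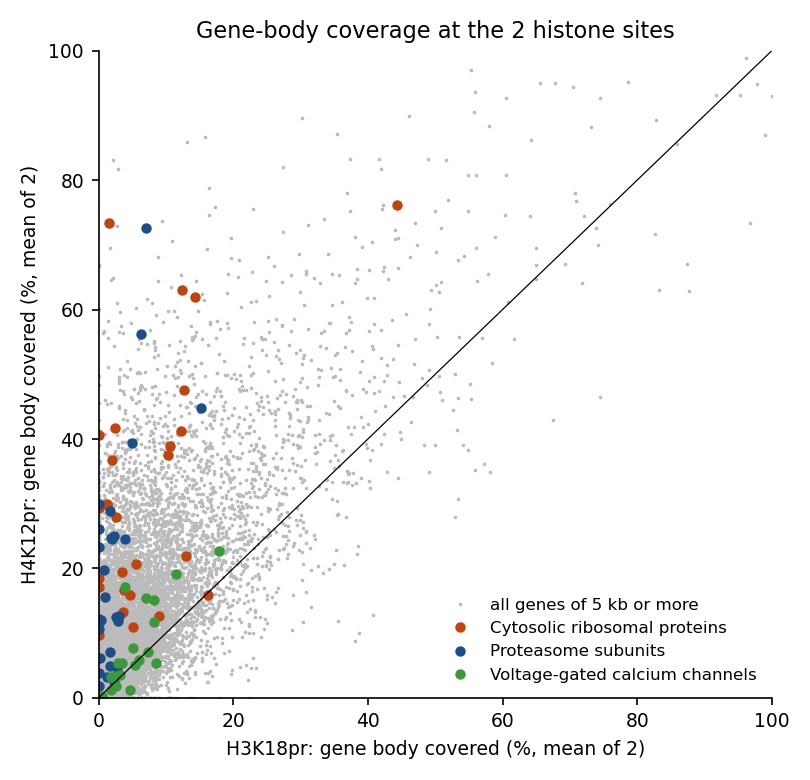
Mean covered percentage of each gene body in H4K12pr against that in H3K18pr, for genes of at least 5 kb with any region. Cytosolic ribosomal protein, proteasome subunit and voltage-gated calcium channel genes are coloured. The median cover of the ribosomal protein genes is 3.65% in H3K18pr and 28.6% in H4K12pr.

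The gene-body difference was larger at genes whose promoter was held than at those where it was not. Genes whose promoter all 4 libraries held (6582) had a mean body cover of 6.76 and 5.43% in H3K18pr and 16.1 and 12.1% in H4K12pr, and H4K12pr was higher in 62.0% of them. Genes with a promoter held by H3K18pr alone (216) had 5.10 and 4.29% against 8.94 and 5.82%, so that H4K12pr was still higher in the body. At these genes both H4K12pr replicates were higher in 32.4% and both H3K18pr replicates in 15.3%. Genes whose promoter no library held (4340) had 2.1 and 1.75% against 3.34 and 1.97%, with overlapping replicates, and there H4K12pr was higher in 13.2% and H3K18pr in 11.5%. Of the H3K18pr-alone promoters, 216 belonged to a gene of at least 5 kb, and the body was one-sided the same way in 7, where 1.14% of all gene bodies were. Of the H4K12pr-alone promoters, 684 belonged to such a gene and the body was one-sided the same way in 63, where 5.12% of all gene bodies were.

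Gene length went with the difference. The median difference in cover was −6.54 points in genes of 5 to 10 kb, −3.21 points in genes of 20 to 50 kb and 0.00826 points in genes over 200 kb. In the longest genes 26.4% were higher in H4K12pr and 22.0% in H3K18pr. Cover is a share of the gene, and the same number of covered bases is a smaller share of a longer gene.

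Gene lists of known complexes and pathways were read against these backgrounds, and no member of any list passed the limma threshold. The ribosomal protein and proteasome lists had the largest median differences of the 16 lists, both toward H4K12pr. Of 28 cytosolic ribosomal protein genes with a tested body, 23 were higher in both H4K12pr replicates and none in both H3K18pr replicates, with a median cover of 3.65% in H3K18pr and 28.6% in H4K12pr. Beside RPS19, RPL13A had 20.1 and 4.82% against 48.2 and 78.0%. Of 28 proteasome subunit genes, 26 were higher in H4K12pr, with median cover of 1.69 and 14.1%. PSMC3, an ATPase of the 19S particle, had 8.62 and 5.35% against 65.9 and 79.3%, and PSMA7, of the 20S core, had 3.99 and 8.50% against 57.7 and 54.7%. At promoters 52 of 55 ribosomal protein promoters were held by all 4 libraries, and 25 of 54 tested were higher in H4K12pr with a median difference of −13.1 points. After quantile normalization the median body difference on the arcsine scale was −0.26 for the ribosomal and −0.23 for the proteasome list, against 0.02 over all gene bodies. All 4 libraries held 94.5 and 87.1% of the promoters of these lists. Of all genes of at least 5 kb with such a promoter, 62.0% were higher in H4K12pr.

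Adhesion, Wnt and cell cycle gene bodies were also more often higher in H4K12pr. Over all gene bodies the shares were 45.1% higher in H4K12pr and 8.08% higher in H3K18pr, and no test was made of a list against them. Among genes whose promoter all 4 libraries held, 62.0% were higher in H4K12pr. Such promoters made up from 36.4% (Wnt) to 79.5% (focal adhesion) of the 5 lists below. After quantile normalization their median differences ran from −0.08 (cell cycle) to 0.04 (cadherin) on the arcsine scale, against 0.02 over all gene bodies. H4K12pr was higher in 28 of 39 focal adhesion and actin genes, in 22 of 29 Wnt and beta-catenin genes, in 24 of 34 cell cycle genes, in 19 of 29 unfolded protein response genes and in 17 of 27 cadherin and adherens junction genes. ITGB4, the integrin of hemidesmosomes, had 14.7 and 18% in H3K18pr and 81.1 and 76.5% in H4K12pr. FZD5, a Wnt receptor, had no H3K18pr region and 33.4 and 24.8% in H4K12pr, and FOSL1, of the AP-1 family, had 62.8 and 48.0% against 98.4 and 95.8%. FOSL1 was the gene among these that H3K18pr also covered widely. CDK2, which drives entry into S phase, went the other way with 27.8 and 18.2% against 12.0 and 8.19%, as did the CDK inhibitor gene CDKN2C with 21.0 and 23.6% against 9.63 and 13.3%. EREG, an EGF receptor ligand, had 12.0 and 16.4% against 7.49 and 4.85%, whereas GRB2, the adaptor below the same receptor, had 1.56 and 1.49% against 24.7 and 18.4%. EIF2AK3, the PERK kinase of the unfolded protein response, had 5.53 and 6.94% against 3.98 and 3.99%, and the chaperone gene CANX had 7.42 and 3.59% against 32.5 and 37.2%.

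Other lists were nearer to all genes. H4K12pr was higher in 14 of 31 EGF receptor signalling genes, 14 of 28 TGF-beta and SMAD genes, 6 of 15 Krüppel-like factor genes, 6 of 11 AP-1 genes and 7 of 22 voltage-gated calcium channel genes. After quantile normalization the median differences of the AP-1 and Krüppel-like factor lists changed sign, to 0.07 and 0.08 on the arcsine scale, toward H3K18pr. At promoters, where 12.6% of all tested were higher in H3K18pr and 23.1% in H4K12pr, 9 of 30 TGF-beta and SMAD promoters were higher in H3K18pr and 2 in H4K12pr, 6 and 2 of 15 Krüppel-like factor promoters, and 5 and 3 of 14 AP-1 promoters. Their median promoter differences were 1.15, 5.37 and 5.65 points, against −4.70 points over all promoters tested. CACNA1S, a calcium channel of muscle, was covered to 4.74 and 4.59% by H3K18pr and 0.492 and 1.82% by H4K12pr.

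The labelled cell type was checked by promoters of marker genes. Over all protein-coding genes, all 4 libraries held 36.5% of promoters and none held 27.6%, and no marker list was tested against these shares. Of 16 colon epithelial markers, all 4 libraries held 7, among them EPCAM, CDH1, CDX2 and KRT8, and none held KRT20 and MUC13. Of 12 blood and endothelial markers all 4 libraries held 1 (CD14), and of 14 liver, muscle and neuron markers they held 2 (CYP2E1 and GRIN1), while 7 and 8 were held by none. The summed promoter cover of the colon markers was 606 and 534% in H3K18pr and 655 and 435% in H4K12pr, that of the blood and endothelial markers 75.2 and 82.2% and 90.4 and 31.4%, and that of the liver, muscle and neuron markers 107 and 111% and 253 and 49.8%. In gene bodies H4K12pr was higher in 4 of 13 colon markers, in 1 of 9 blood and endothelial markers and in 1 of 10 liver, muscle and neuron markers. Over all gene bodies the share was 45.1%.

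Whether the distribution over classes was particular to propionylation was tested against the acetyl marks in NaPr and the butyryl marks in butyrate. The gene-body difference between H3K18 and H4K12 was −7.95 points for acetyl and 1.04 points for butyryl, beside −10.7 points for propionyl. Without acetyl-H3K18 replicate 1 the acetyl difference was −16.8 points. The intergenic difference was −0.00252 points for acetyl, or 6.67 without that replicate, and 4.70 points for butyryl, beside 8.04 for propionyl. The propionyl difference was not shown to differ from either in gene-body share (exact permutation over 36 arrangements, p = 0.889 and 0.111, adjusted p = 0.889 and 0.222) or in intergenic share (p = 0.222 and 0.556, adjusted p = 0.356 and 0.635, by Benjamini-Hochberg over 8 comparisons).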

How the data were processed

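Enriched regions of 4 propionyl ChIP-seq libraries of SW480 cells were analysed, with the acetyl, butyryl and input lists as comparison. Per the labels and the study's methods, reads were processed with bcl2fastq 2.17.1 and cutadapt 1.8.1, aligned to hg38 with Bowtie2 2.3.1, and peaks were called for each library against input with MACS2 2.1.0 at a p of 0.01, with blacklisted regions removed. The deposited lists give each peak a fold, the ratio of pileup to local background, and a −log10 p-value and q-value, which the authors' caller set and which depend on depth. The study itself compared marks on reads with DiffBind; reads were not used here.

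Genes came from GENCODE on hg38. Each library gave 1 value for each property, and sites were compared by two-sided exact permutation over 6 arrangements (smallest p 0.333), or over 36 within acyl groups (smallest p 0.0556). Covered fractions were tested with limma 3.58.1 in R 4.3.3, which was tested on simulated data. Depth was estimated from the whole-number pileups that fold and p imply, solved to a tolerance of 0.002 on the log10 p scale. For equal depth, pileup and background were scaled to the shallowest library and regions keeping a p under 0.01 were retained. Regions with a −log10 p over 15 were all kept, and no region was called again or narrowed. Alternatives were equal numbers of regions, the 20000 strongest, q under 0.001, regions off input, regions of 400 bp, promoters of 2.5 kb, a replicate block, quantile normalization, other scales and leaving out each replicate. Named promoters were the 8 of each direction with the highest fold in the weaker replicate. Named regions were taken from the strongest 2 of each direction and class (a selection is printed, and some selected items are not reported here) and the widest 4 of each direction. For gene lists, named members were up to 2 at each end of the difference. The gene-body genes, one-sided list members and start ratio were named after their values were seen. Members and lists were chosen with earlier results of these data known.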

Additional observations from a re-analysis of the deposited data

Results flagged for a closer look

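The median width gave 2 differences that reached the smallest p its design allows. With equal numbers of regions, H3K18pr was narrower than H4K12pr by a difference of −98.5 bp, whereas acetylated H3K18 was wider than acetylated H4K12 in NaPr by 118.5 bp and butyrylated H3K18 was wider than butyrylated H4K12 in butyrate by 49.5 bp. The replicates of the sites did not overlap in any of the 3 acyl groups. The difference of the differences was −217 bp against acetyl and −148 bp against butyryl, each with an exact permutation p of 0.0556 over 36 arrangements and an adjusted p of 0.222 by Benjamini-Hochberg, so neither passed the threshold. With all regions the values were −81.5 and −67.0 bp, each with an exact p of 0.111. Among regions with q under 0.001 they were −46.0 and −48.5 bp, each with an exact p of 0.667, and among the 20000 strongest −511.5 bp against acetyl and −25.25 bp against butyryl, with exact permutation p of 0.222 and 1. The 2 comparisons share the propionyl libraries. The butyryl lists, of 8158 to 22497 regions, were shorter than the common number and were used whole. Acyl group and run cannot be told apart.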

How the results depend on the processing

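Of 234 alternative values over 27 results, 198 kept their direction and their side of the threshold or, for counts, stayed within 1.5 times, 26 moved and 10 reversed; the causes were not tested. Keeping direction did not mean keeping size: the ETS difference fell from 0.37 to 0.07 among the 20000 strongest, and that in promoters held from −1222 to −97.5 at equal numbers. Equal numbers of regions gave 10902 H4K12pr-alone regions, 437 and 515 one-sided promoters, a promoter share difference of −0.0935 points and a gene-body difference of differences against acetyl of 2.60 points. The 20000 strongest gave 2398 and 1470 one-sided regions, 381 H3K18pr-alone promoters, a promoter share difference of −2.02 points, a width difference of 39.75 bp and 21.3 points against acetyl. The q threshold gave 3148 and 10073 one-sided regions and a width difference of 49.5 bp. Regions of 400 bp gave 1015 promoter and 435 gene-body calls in limma, the promoter calls being close in number to the one-sided promoters of that setting. Windows of 100 bp gave a SMAD difference of −0.0528 on the log2 scale.

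Leaving out 1 replicate gave 8394 to 49260 H3K18pr-alone and 24306 to 107104 H4K12pr-alone regions, 500 to 876 and 1183 to 2053 one-sided promoters, width differences of −41.5 to 6.50 bp, SMAD differences of −0.00677 to 0.127, and 0 to 1900 promoter and 0 to 1482 gene-body calls, where a lone library was assumed to vary like the other group. With fewer libraries to agree, more regions count as one-sided by construction. The gene-body share difference stayed between −11.1 and −10.2 points and that of the start ratio between −0.842 and −0.733.

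The replicate numbers are only numbers here. With the replicate number as a block the differences kept their values (gene-body share −10.7 points, promoter share 2.65 points, exact p = 0.5 each, the smallest 2 pairs allow) and limma called 0 promoters and 0 gene bodies. With 2 libraries a site, no exact test could pass 0.05, and weak regions missing from the shallower H3K18pr lists may lie below detection.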

Other observations

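Some summit windows held sequence of the Alu family, a repeat of primate genomes, which prompted a count chosen after sequences had been read. The 9-letter string CTGTAATCC, common in Alu elements, was searched on both strands. It stood in 10.9 and 10.0% of H3K18pr summit windows and in 16.6 and 15.1% of H4K12pr summit windows, against 8.98 and 8.44% and 9.95 and 10.3% of their flanks. The ratio of summit to flank was 1.21 and 1.19 for H3K18pr and 1.67 and 1.46 for H4K12pr, with an exact permutation p of 0.333, the smallest possible. Among H4K12pr-alone regions the string stood in 22.3% of windows, 1.94 times its flanks. Among H3K18pr-alone regions it stood in 8.92% and among regions of all 4 libraries in 8.21%. Input regions held it in 5.00% of windows against 5.63% of flanks.

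The sites also differed in which chromosomes carried their regions. Chromosome 17 held 6.66 and 5.97% of H3K18pr regions and 7.87 and 7.88% of H4K12pr regions. Chromosome 7 held 5.84 and 5.69% against 6.80 and 6.90%. Chromosome 6 went the other way, with 4.42 and 4.93% against 3.59 and 3.58%, as did chromosome 4 with 2.96 and 3.49% against 2.56 and 2.47%. Replicates of the sites did not overlap on these 4 chromosomes, nor on most of the others, so the lack of overlap does not set these 4 apart.

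The 881 genes of at least 5 kb whose body was held by both H4K12pr replicates and neither H3K18pr replicate had a median length of 18771 bp. The 197 genes with a body held by H3K18pr alone had a median length of 51955 bp, close to the 52907 bp of the 9279 genes with a body held by all 4 libraries.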
